A study of Prunus persica with 2 samples.

Results

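Divergent gene pairs are neighbouring genes that lie head to head, the left gene on the minus strand and the right gene on the plus strand, so that transcription of both starts at the stretch of DNA between them. When that stretch is short it can hold the promoter sequences of both genes and is then called a bidirectional promoter. In a same-strand pair the stretch between the genes holds the end of the upstream gene and the start of the downstream gene, and in a convergent pair it holds both ends. Chromatin that is open at a start site can be used by transcription in either direction, and for this reason divergent neighbours have been studied for shared activity in plants, yeasts and animals.

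In the annotation carried by the peach (Prunus persica) transcript tables, 1093 divergent pairs had a gap of 1 to 1000 bases. They were chosen by position and strand alone, from 26803 adjacent pairs formed by 26811 annotated genes on the pseudomolecules Pp01 to Pp08. A gene can have a divergent neighbour on 1 side only, so the pairs hold 2186 different genes, 8.15% of those annotated. Of all 6108 adjacent divergent pairs, 417 had no gap between the annotated transcripts and 4598 had a gap of more than 1000 bases. Pairs within 1000 bases were thus 17.9% of divergent neighbours, against 29.6% of 14587 same-strand neighbours and 40.7% of 6108 convergent neighbours. The same-strand pairs of the same gap numbered 4321, with a median gap of 504 bases, close to the 508 bases of the divergent pairs. The convergent pairs numbered 2483, with a median gap of 318 bases.

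RNA was taken from peach fruit wounds that had received 30 μL of a suspension of the yeast Pichia membranaefaciens, an agent studied for biological control of fruit rot, or 30 μL of sterilized water as the control. Fruit of both groups were kept at 28 °C and 95% relative humidity and wound tissue was taken on day 3. There was 1 library per treatment, so no test, SD or p-value can be given, and the sources used here do not say whether a library pooled several fruit. The study asked which genes related to resistance differ between tissue with and without the yeast. The treated library held about 25100000 fragments and the control library about 26800000. The deposited files pair no identifier with a gene name or product, so the wound tissue could not be checked against marker genes, and genes are given by position. In tissue, less RNA per cell and fewer cells of a kind cannot be told apart.

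The level of a gene is the sum of FPKM (fragment numbers divided by transcript length and library depth) over its own annotated transcripts, and FPKM values of different genes can be compared because they are scaled for length. A gene was called expressed when it reached 1 FPKM in both libraries. Both genes were expressed in 421 of the 1093 divergent pairs (38.5%), 1 gene in 411 pairs (37.6%) and neither gene in 261 pairs (23.9%). Among same-strand pairs, both genes were expressed in 1362 of 4321 (31.5%), 1 gene in 1753 (40.6%) and neither in 1206 (27.9%). With the same-strand pairs weighted to the gaps of the divergent pairs in steps of 50 bases, their share with both genes expressed was 31.4%, and it was 32.0% when pairs merged into 1 assembled locus were left out. Among convergent pairs weighted in the same way the share was 32.3%. Neither gene was expressed in 23.1% of convergent pairs so weighted, close to the 23.9% of divergent pairs, and in 28.6% of same-strand pairs. Pairs on 1 genome in 2 libraries are not replicates, and the difference between the classes was not tested.

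Divergent and same-strand pairs lay furthest apart in this share at short gaps, and the share was also higher in divergent pairs at some longer gaps. At gaps of 1 to 250 bases both genes were expressed in 157 of 307 divergent pairs (51.1%), against 295 of 870 same-strand pairs (33.9%). Among convergent pairs of those gaps they were in 375 of 1009 (37.2%). At gaps above 250 and up to 500 bases the shares were 33.6% of 232 divergent pairs and 32.6% of 1273 same-strand pairs. At gaps above 500 bases they were 33.6% of 554 divergent pairs and 29.9% of 2178 same-strand pairs. In steps of 100 bases, divergent pairs stood at 52.3% for gaps of 1 to 100 bases and 53.1% in the next step, then at 41.2% for gaps above 200 and up to 300 bases, and between 30.1% and 37.7% in every later step. Same-strand pairs stayed between 25.7% and 36.1% in all 10 steps. Divergent pairs were also above them at gaps above 500 and up to 600 bases (37.7% of divergent and 31.5% of same-strand pairs) and in the last step below 1000 bases (32.2% of divergent and 25.7% of same-strand pairs). The divergent share was likewise higher above 300 and up to 400 bases (36.6% against 31.1% of same-strand pairs). The same held above 700 and up to 800 bases (36.1% against 31.5%) and above 800 and up to 900 bases (31.7% against 28.6%). Divergent pairs were below same-strand pairs at gaps above 400 and up to 500 bases (30.1% of divergent and 32.4% of same-strand pairs) and in the step from 600 to 700 bases (30.6% of divergent and 31.1% of same-strand pairs). The pairs at the edges of the rule had similar shares on both sides of 1000 bases: both genes were expressed in 18 of 61 pairs with gaps in the last 50 bases below that limit and in 20 of 63 pairs in the first 50 bases above it. At the other edge, both were expressed in 31 of 55 pairs with gaps of 1 to 50 bases. They were expressed in 13 of 28 pairs whose transcripts met or overlapped by up to 49 bases.

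**Figure D1:**
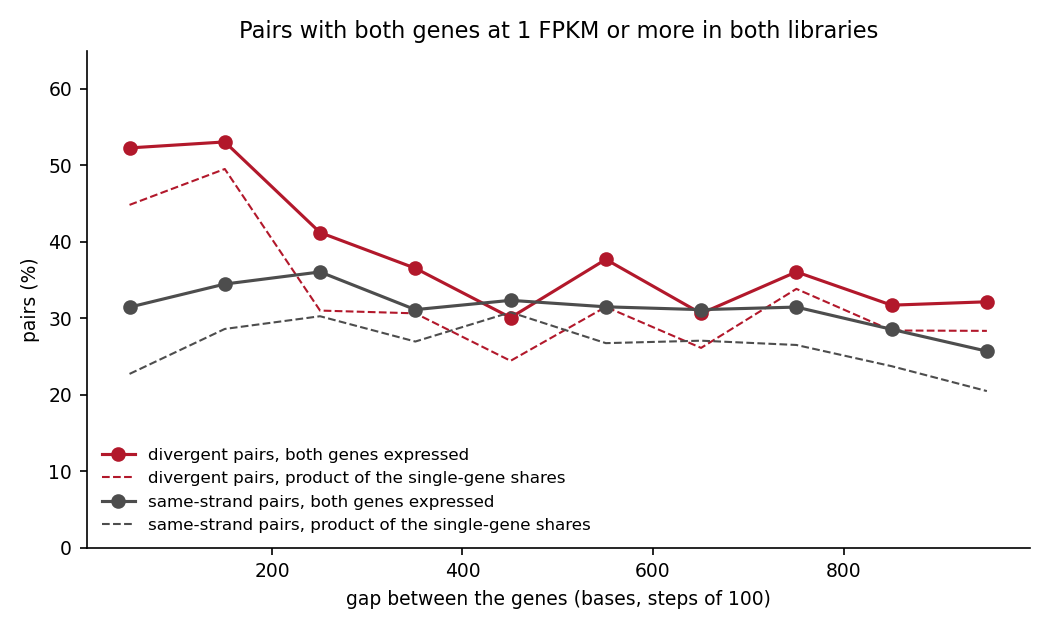
Share of pairs with both genes at 1 FPKM or more in both libraries (vertical axis, percent) by the gap between the genes (horizontal axis, bases, in steps of 100), for divergent pairs in red and same-strand pairs in grey; dashed lines are the product of the shares of expressed genes on each side of the gap. Divergent pairs are above 50% in the first 2 steps (52.3% and 53.1%), where same-strand pairs are at 31.5% and 34.5%.

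Single genes of short-gap divergent pairs were also more often expressed than those of same-strand pairs, and genes of convergent pairs lay between. At gaps of 1 to 250 bases, 66.1% of the minus-strand genes and 66.4% of the plus-strand genes were expressed. In same-strand pairs of that gap, 57.0% of the upstream genes and 48.2% of the downstream genes were. In convergent pairs of that gap, 58.0% of the plus-strand genes and 60.8% of the minus-strand genes were. If the genes of a pair were expressed independently, the product of the 2 shares would be 43.9% for the divergent and 27.5% for the same-strand pairs. The observed shares exceeded these products by 7.20 percentage points in divergent pairs and by 6.45 points in same-strand pairs. Over all gaps to 1000 bases the excess was 5.67 points in divergent, 4.77 points in same-strand and 1.94 points in convergent pairs. The excess was thus of like size in divergent and same-strand pairs, while the shares of expressed single genes lay further apart.

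Members of short-gap pairs also differed from other genes in exon number, a feature the selection did not use. Single-exon genes made up 12.2% of the 614 genes in divergent pairs with gaps of 1 to 250 bases, 16.8% of all 2186 members and 19.1% of all annotated genes. The share of expressed genes went up with exon number in each set, so it was compared within exon classes. Among single-exon genes, 31 of 75 short-gap divergent members were expressed (41.3%), against 31.6% of 326 genes in same-strand pairs of that gap and 24.5% of 5119 annotated genes. Among genes of 2 to 3 exons the shares were 52.2% of 161 short-gap members, 41.0% of 498 same-strand genes and 32.6% of 7882 annotated genes. Among genes of 4 to 9 exons they were 77.1% of 258 short-gap members, 61.9% of 619 same-strand genes and 56.1% of 9667 annotated genes. At 10 or more exons the sets lay close together, at 77.5% of 120 short-gap members, 81.1% of 254 same-strand genes and 76.0% of 4143 annotated genes. The median length of the longest annotated transcript was 1593 bases for all members and 1613 bases for all annotated genes.

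**Figure D2:**
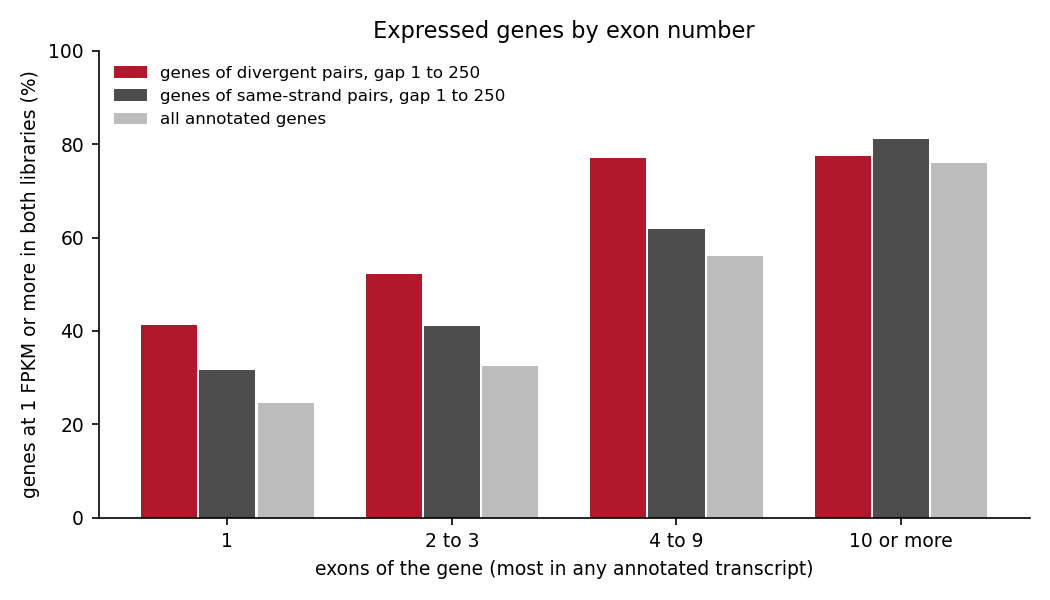
Share of genes at 1 FPKM or more in both libraries (vertical axis, percent) by exon number (horizontal axis, the most exons in any annotated transcript), for genes of divergent pairs with gaps of 1 to 250 bases (red), genes of same-strand pairs of that gap (dark grey) and all annotated genes (light grey). The red bar is the highest in the first 3 classes (41.3%, 52.2% and 77.1%) and lies between the other bars at 10 or more exons (77.5%).

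Once expressed, members had levels like those of other genes. Expressed members had a median of 12.2 FPKM in the treated library and 13.0 FPKM in the control library, against 12.2 FPKM in the treated and 12.0 FPKM in the control library for all expressed annotated genes. At 100 FPKM or more in both libraries were 62 members (2.84%), against 805 of all annotated genes (3.00%). The number of members listed at 0 in both libraries was 440 (20.1%), against 7460 of all annotated genes (27.8%). Among the 7693 genes of same-strand pairs it was 1629 (21.2%), close to the share of the members. The members were spread over all 8 pseudomolecules, from 7.25% of the genes of Pp04 to 9.66% of the genes of Pp05. Both genes were expressed in 30.6% of 144 pairs on Pp06 at the low end and in 47.2% of 106 pairs on Pp07 at the high end.

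Levels of the 2 genes of a pair were only loosely alike. A gene with 1 FPKM or more in either library counted as measured, and both genes were measured in 473 divergent pairs. The median distance between the levels of the 2 genes, on the log2(FPKM + 1) scale, was 1.68 in the treated library and 1.66 in the control library. In 1531 same-strand pairs it was 1.63 in the treated and 1.67 in the control library. The levels lay within 1 log2 unit of each other in 157 divergent pairs in the treated library (33.2%) and 158 in the control library (33.4%), against 31.7% of same-strand pairs in the treated and 31.9% in the control library. They lay 10-fold or more apart (in FPKM + 1) in 82 divergent pairs in the treated library (17.3%) and 81 in the control library (17.1%), against 18.9% of same-strand pairs in the treated and 18.0% in the control library. At gaps of 1 to 250 bases the median distance of divergent pairs was 1.32 in the treated library and 1.54 in the control library, and that of same-strand pairs was 1.55 in the treated and 1.51 in the control library.

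Across the 473 divergent pairs, Pearson's r between the levels of the minus-strand and the plus-strand gene was 0.04 in the treated library and 0.05 in the control library, and Spearman's rho was 0.03 in the treated and 0.05 in the control library (no p is given, since the pairs share 2 libraries). The same-strand pairs gave r of 0.06 in each library. When pairs with unmeasured genes were included, r over all 1093 divergent pairs was 0.19 in each library, and over the 4321 same-strand pairs it was 0.15 in the treated and 0.16 in the control library. The correlation was thus near 0 among pairs in which both genes were measured. With unmeasured genes included, Spearman's rho at gaps of 1 to 250 bases was 0.34 in divergent pairs in each library, against 0.26 in the treated and 0.27 in the control library in same-strand pairs. At gaps above 250 and up to 500 bases it was 0.25 in the treated and 0.24 in the control library in divergent pairs. In same-strand pairs of those gaps it was 0.17 in the treated and 0.16 in the control library. At gaps above 500 bases rho was 0.11 in the treated and 0.12 in the control library in divergent pairs. In same-strand pairs of those gaps it was 0.21 in the treated and 0.22 in the control library. Neither strand led: the minus-strand gene was the more abundant in 218 of the 473 pairs in the treated library and in 225 in the control library.

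**Figure D3:**
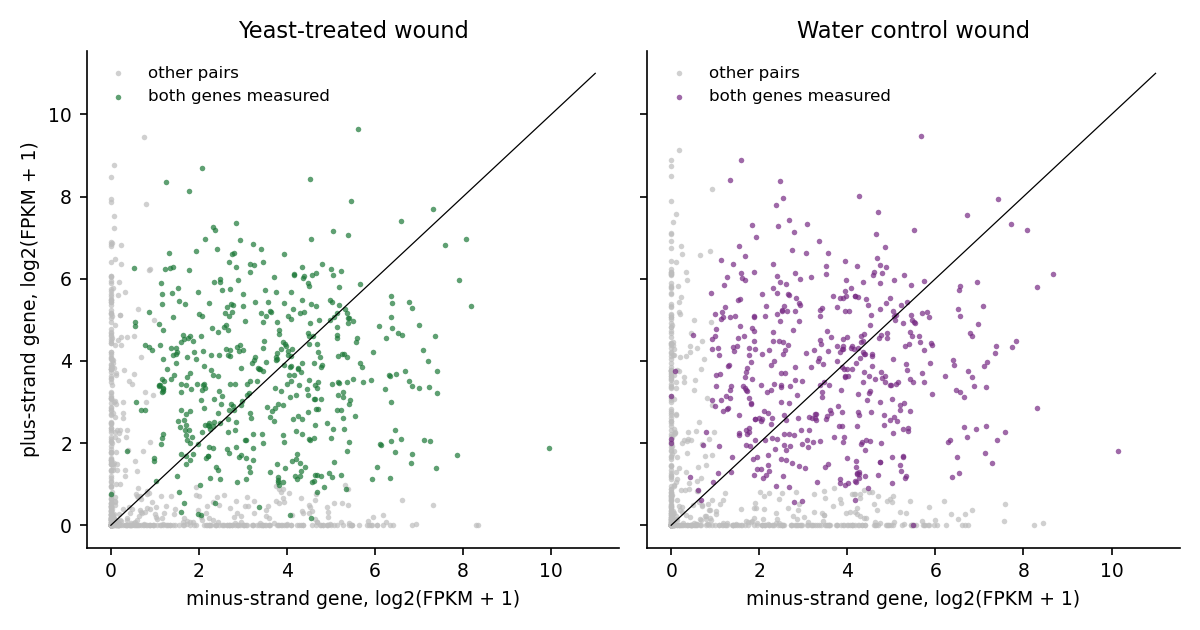
Level of the plus-strand gene (vertical axis, log2(FPKM + 1)) against the level of the minus-strand gene (horizontal axis, same scale) for all 1093 divergent pairs in the yeast-treated wound (left) and the water control wound (right); coloured points are the 473 pairs with both genes measured and the line marks equal levels. The coloured points show no slope (r of 0.04 in the treated and 0.05 in the control library), and pairs with 1 gene at or near 0 lie along the axes.

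Abundant divergent pairs were few. All 4 values of a pair reached 5 FPKM in 213 pairs (19.5%), 20 FPKM in 52 pairs (4.76%) and 100 FPKM in 3 pairs (0.274%), against 15.7%, 3.84% and 0.139% of same-strand pairs. The pair with the highest level at its lower gene had a gap of 252 bases on Pp03, from 24485483 to 24485734. Its minus-strand gene, with 9 exons, had 158 FPKM in the treated and 170 FPKM in the control library, and its plus-strand gene, with 4 exons, had 207 FPKM in the treated and 243 FPKM in the control library. In a pair on Pp01 with a gap of 735 bases, from 33005532 to 33006266, the minus-strand gene had 268 FPKM in the treated and 271 FPKM in the control library. The plus-strand gene of that pair had 124 FPKM in the treated and 145 FPKM in the control library. The third such pair, on Pp02 with a gap of 82 bases from 29681905, had 191 FPKM in the treated and 208 FPKM in the control library at the minus-strand gene. The plus-strand gene had 112 FPKM in the treated and 160 FPKM in the control library. All 6 genes of these pairs were lower in the treated library, by 0.01 to 0.51 on the log2 scale, and none reached the threshold of 1 used below.

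A short gap did not go with equal levels in the closest pairs. The smallest gap with all 4 values at 5 FPKM or more was a single base, at position 11134408 of Pp07. The minus-strand gene there, with 3 exons, had 146 FPKM in the treated and 164 FPKM in the control library. Its plus-strand neighbour, with 10 exons, had 14.9 FPKM in the treated and 17.4 FPKM in the control library, so that the minus-strand gene stood at 9.79 times its partner in the treated and 9.39 times in the control library. The next pair, with a gap of 5 bases from 25607194 on Pp06, had 31.8 FPKM in the treated and 25.1 FPKM in the control library at the minus-strand gene. Its plus-strand gene had 143 FPKM in the treated and 196 FPKM in the control library, which is 4.50 times its partner in the treated and 7.83 times in the control library. In that pair the minus-strand gene was slightly higher and the plus-strand gene slightly lower in the treated library (differences of 0.33 and -0.45).

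In 292 pairs (26.7%) exactly 1 gene was listed at 0 in both libraries, and in 180 of these the partner reached 1 FPKM in both. Of all members, 20.1% were listed at 0 in both libraries. The count of such pairs was not taken for same-strand pairs, so it cannot be called high or low. Among the 292 pairs, the partner reached 20 FPKM in 60 and 100 FPKM in 8. On Pp08, a plus-strand gene of 5 exons from 22212889 had 352 FPKM in the treated and 475 FPKM in the control library, and the single-exon gene 682 bases away on the minus strand was listed at 0 in both. On Pp02, a plus-strand gene of 3 exons from 29869138 had 246 FPKM in the treated and 362 FPKM in the control library, and its minus-strand neighbour of 8 exons, 635 bases away, was listed at 0 in both. Another gene on Pp08, with 4 exons on the minus strand from 13940312 to 13941968, had 313 FPKM in the treated and 303 FPKM in the control library, and its neighbour of 2 exons 385 bases away was listed at 0. These 3 pairs have the most abundant genes among pairs with a partner at 0.

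The expression state of divergent pairs was largely the same with and without the yeast. Counting each library alone, both genes reached 1 FPKM in 445 pairs in the treated library and in 448 in the control library, and neither did in 245 in the treated and 241 in the control library. In 1010 pairs (92.4%) each gene was on the same side of 1 FPKM in both libraries. These include the 74 pairs (6.77%) in which both genes were listed at 0 in both libraries. The like share of same-strand pairs was not counted. Both genes reached 1 FPKM in the treated library alone in 24 pairs and in the control library alone in 27. Among the 83 pairs whose state differed, 27 held a gene past the threshold of difference. The gene with the higher level in the treated library was also the higher one in the control library in 438 of the 473 measured pairs (92.6%), against 93.4% of same-strand pairs.

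Few members differed between the treatments. The difference was taken as log2(FPKM + 1) in the treated minus the control library, and a measured gene was called higher or lower when it was 1 or more in size. Of 1340 measured members, 22 were higher (1.64%) and 33 were lower (2.46%) in the yeast-treated wound, against 2.29% higher and 2.33% lower of 13335 measured annotated genes. These shares were near those of the annotated genes as a whole in the lower direction and somewhat below them in the higher direction. The low share of higher genes was not particular to divergent pairs. Of 4797 measured genes in same-strand pairs, 72 were higher, a slightly smaller share than among divergent members, and 122 were lower (2.54%). Of 2961 measured genes in convergent pairs, 52 were higher (1.76%) and 55 were lower (1.86%). The median difference of members was -0.04 and the central 90% of them lay between -0.70 and 0.45, against a median of 0.01 and a range of -0.64 to 0.65 for all measured genes. Differences of 2 or more were seen at 7 higher and 7 lower members (0.427% higher and 0.472% lower over all measured genes).

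How reads were divided between annotated and newly assembled transcripts moved with these calls. A newly assembled transcript lay in the merged locus of 11 of the 22 higher members (50%) and of 10 of the 33 lower ones (30.3%), against 178 of all 1340 measured members (13.3%). Over all measured annotated genes it was 40.3% of the higher, 29.9% of the lower and 12.5% of all genes, so the members' shares were not far from those of the annotation as a whole. In the authors' deposited gene values, which add the reads of such transcripts, 12 of the 22 and 22 of the 33 still passed the threshold in the same direction. By those gene values 13 of 1403 measured members were higher (0.927%) and 22 lower (1.57%), against 1.44% higher and 1.59% lower of 14251 annotated genes. Among the 248 members with a new transcript in the locus and gene values above 0.5 FPKM in both libraries, the ratio of the libraries' gene values equalled the ratio of the reads of the whole locus in all 248, to a relative tolerance of 0.001. Without members that have a new transcript in their locus, 11 were higher (0.947%) and 23 lower (1.98%) of 1162, against 1.56% higher and 1.87% lower of 11665 annotated genes under the same filter.

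The members with the largest differences illustrate both cases. On Pp01, the single-exon gene Prupe.1G183200 (minus strand, 16208305 to 16209197) had 81.7 FPKM in the treated and 0.410 FPKM in the control library, a difference of 5.87. New transcripts in its locus had 23.5 FPKM in the treated and 37.5 FPKM in the control library, and its gene value was 85.5 FPKM in the treated and 18.6 FPKM in the control library, so it was higher by either measure. Its partner, 49 bases away, had 32.3 FPKM in the treated and 23.6 FPKM in the control library, a difference of 0.44. On Pp08, Prupe.8G201500 (minus strand, 3 exons, 19017826 to 19021267) had 6.68 FPKM in the treated and 0.0654 FPKM in the control library, about 416 fragments against 4, with no new transcript in its locus. Its partner across 386 bases had 19.8 FPKM in the treated and 12.5 FPKM in the control library, a difference of 0.62. In the other direction, the single-exon gene Prupe.1G284300 (minus strand of Pp01, 28592036 to 28593888) had 4.42 FPKM in the treated and 113 FPKM in the control library. A new transcript in its locus had 120.4 FPKM in the treated and 12.9 FPKM in the control library, and its gene values were 125 FPKM in the treated and 118 FPKM in the control library, so the gene as a whole did not pass the threshold. Its partner 395 bases away was nearly silent, with 0.0543 FPKM in the treated and 0.292 FPKM in the control library. The second largest lower difference, at Prupe.8G007000, likewise stood beside a new transcript and is given with its pair below.

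The 2 genes of a divergent pair seldom passed the threshold together. Among the 473 pairs with both genes measured, both were higher in 1, both were lower in none (0), they went opposite ways in 1, and 1 gene alone passed in 38. Among 1531 same-strand pairs the numbers were 1, 0, 1 and 108. The pair that was higher together lies on Pp05 with a gap of 65 bases, from 11451418 to 11451482. Its minus-strand gene, a single exon from 11450360, had 6.48 FPKM in the treated and 0.608 FPKM in the control library, which is about 172 against 17 fragments and a 10.8-fold ratio (95% counting interval 6.55 to 18.95). The plus-strand gene, of 3 exons, had 2.18 FPKM in the treated and 0.537 FPKM in the control library, which is about 69 against 18 fragments and a 4.09-fold ratio (95% counting interval 2.41 to 7.30). Neither gene has a new transcript in its locus, and the gene values equal these sums. Both genes were below 1 FPKM in the control library, so this was a pair of scarce transcripts.

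The pair that went opposite ways lies on Pp06 with a gap of 967 bases, from 28960718 to 28961684. Its minus-strand gene of 12 exons had 22.2 FPKM in the treated and 10.3 FPKM in the control library, a difference of 1.04, and a new transcript in its locus had 6.20 FPKM in the treated and 14.6 FPKM in the control library. The gene value, with that transcript, was 26.9 FPKM in the treated and 24.0 FPKM in the control library, and no longer passed the threshold. The plus-strand gene, a single exon, had 0.130 FPKM in the treated and 1.68 FPKM in the control library, which is about 6 against 85 fragments and a 0.0753-fold ratio (95% counting interval 0.0269 to 0.171). The opposite movement of the pair thus did not hold by the gene values.

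Partners of genes past the threshold had differences on both sides of 0. The partner was measured for 18 of the 22 higher members, and its median difference was 0.14, with 12 partners above 0 and 6 below. The partner was measured for 24 of the 33 lower members, and its median difference was 0.01, with 13 above 0 and 11 below. A difference under 0.5 in size was found for 11 of the 18 partners of higher members (61.1%) and for 20 of the 24 partners of lower members (83.3%), against 85.5% of all measured members. In same-strand pairs it was found for 76.3% of 38 partners of higher genes and 87.8% of 74 partners of lower genes, and in convergent pairs for 93.1% of 29 partners of higher genes and 82.9% of 35 partners of lower genes. The partners of higher divergent members thus had small differences less often than measured members as a whole, over 18 partners and with no test. These 18 are not all from separate pairs. In the Pp05 pair that was higher together, each gene counts as the other's partner (differences of 2.22 and 1.05). The plus-strand gene of the pair that went opposite ways (-1.25) is also among them, beside a gene that did not pass by the gene values. For same-strand pairs the median partner difference was -0.01 beside higher and -0.01 beside lower genes, with 17 partners above 0 and 21 below beside the higher genes. For convergent pairs it was -0.08 beside higher and -0.06 beside lower genes.

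In some pairs a difference of 2 or more at 1 gene stood beside a partner that differed by less than 0.2. On Pp02, across 461 bases from 30032351 to 30032811, the plus-strand gene of 2 exons had 133 FPKM in the treated and 19.6 FPKM in the control library, a 6.77-fold ratio (95% counting interval 6.33 to 7.26). Its minus-strand partner of 7 exons had 40.9 FPKM in the treated and 39.0 FPKM in the control library. No new transcript lies over that pair. On Pp08, across 517 bases from 538657 to 539173, the plus-strand gene Prupe.8G007000, of 18 exons, had 1.32 FPKM in the treated and 16.5 FPKM in the control library, and its minus-strand partner had 24.8 FPKM in the treated and 22.8 FPKM in the control library. A new transcript in the locus of Prupe.8G007000 had 13.5 FPKM in the treated and 2.80 FPKM in the control library, and its gene values were 14.0 FPKM in the treated and 18.7 FPKM in the control library, short of the threshold. On Pp04, across 39 bases from 8842529, the plus-strand gene had 4.47 FPKM in the treated and 23.8 FPKM in the control library, and its new transcript had 15.7 FPKM in the treated library and was listed at 0 in the control library. The gene values there were 14.7 FPKM in the treated and 17.6 FPKM in the control library. The partner of that gene had 23.9 FPKM in the treated and 26.1 FPKM in the control library. A further pair on Pp01, chosen after its values were seen because it has no new transcript in the locus, had 1.17 FPKM in the treated and 8.14 FPKM in the control library at a plus-strand gene of 4 exons from 3015635, and 60.2 FPKM in the treated and 60.0 FPKM in the control library at the minus-strand partner 731 bases away.

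**Figure D4:**
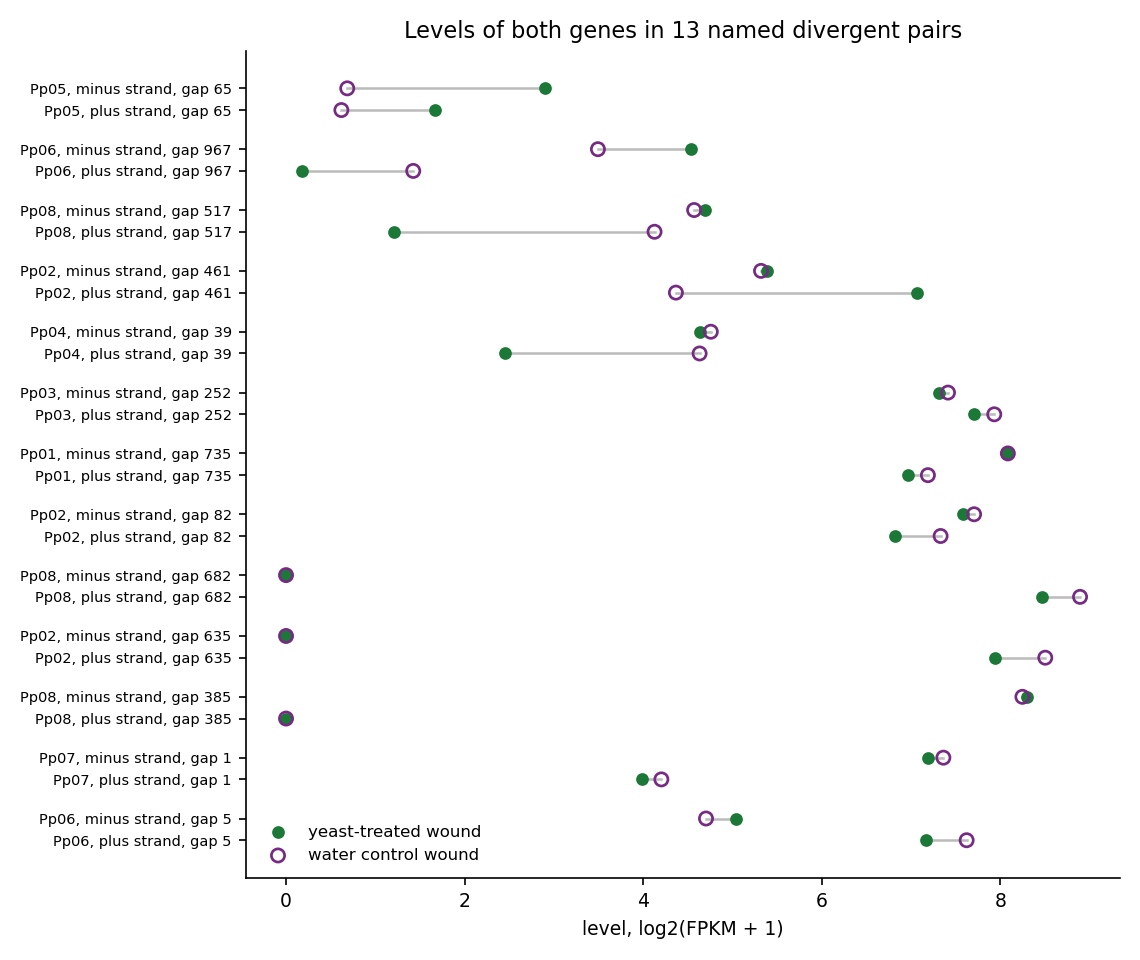
Level (horizontal axis, log2(FPKM + 1)) of the minus-strand and plus-strand gene of 13 named divergent pairs, 1 gene per line and labelled by pseudomolecule, strand and gap in bases; filled green points are the yeast-treated wound and open purple points the water control wound. The top pair is higher at both genes in the treated library (2.22 and 1.05), the next goes opposite ways, and the following 3 pairs differ by more than 2 at the plus-strand gene and by less than 0.2 at the minus-strand gene.

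Over the 473 pairs, the differences of the 2 genes were weakly related, with Pearson's r of 0.09 and Spearman's rho of 0.08, against an r of 0.04 and a rho of 0.05 in same-strand pairs. By the deposited gene values r was 0.11 in divergent and 0.11 in same-strand pairs. Those values can follow the reads of a whole merged locus, which 138 same-strand pairs but no (0) divergent pair share. This equality thus cannot show whether the classes differ. Without pairs that hold a new transcript r was 0.06 in each class. With a pseudocount of 0.1 it was 0.10 in divergent and 0.03 in same-strand pairs, and with a filter of 5 FPKM 0.09 and 0.03. Without pairs that have a new transcript in a member's locus it was 0.09 and 0.06. These differences between the classes were not tested. By the annotated sums, the 2 genes differed with the same sign in 249 divergent pairs (52.6%) and in 52.2% of same-strand pairs. Among divergent pairs with at least 100 fragments at both genes in both libraries, r was 0.01 over 329 pairs, against 0.03 over 1073 same-strand pairs. By gap, r was 0.13 at 1 to 250 bases, 0.30 above 250 and up to 500 bases and -0.04 above 500 bases, against 0.08, -0.02 and 0.06 in same-strand pairs. The value of the middle class rested on 90 pairs and was 0.17 over 87 pairs when the 3 pairs with the largest product of differences were left out. These 3 pairs, chosen after their values were seen, are that of Prupe.8G201500 and a pair each at gaps of 434 and 282 bases on Pp01. In the pair with a gap of 434 bases the plus-strand gene, of 2 exons from 9985573 to 9986467, had 16.9 FPKM in the treated and 2.90 FPKM in the control library, and its minus-strand neighbour had 1.78 FPKM in the treated and 0.639 FPKM in the control library. That plus-strand gene is the left end of 7 adjacent genes on Pp01 that were all higher in the treated library, by 1.05 to 2.25. In the pair with a gap of 282 bases, both genes have a single exon, with 3.69 FPKM in the treated and 0.802 FPKM in the control library at the plus-strand gene. Its minus-strand gene had 1.27 FPKM in the treated and 0.518 FPKM in the control library.

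**Figure D5:**
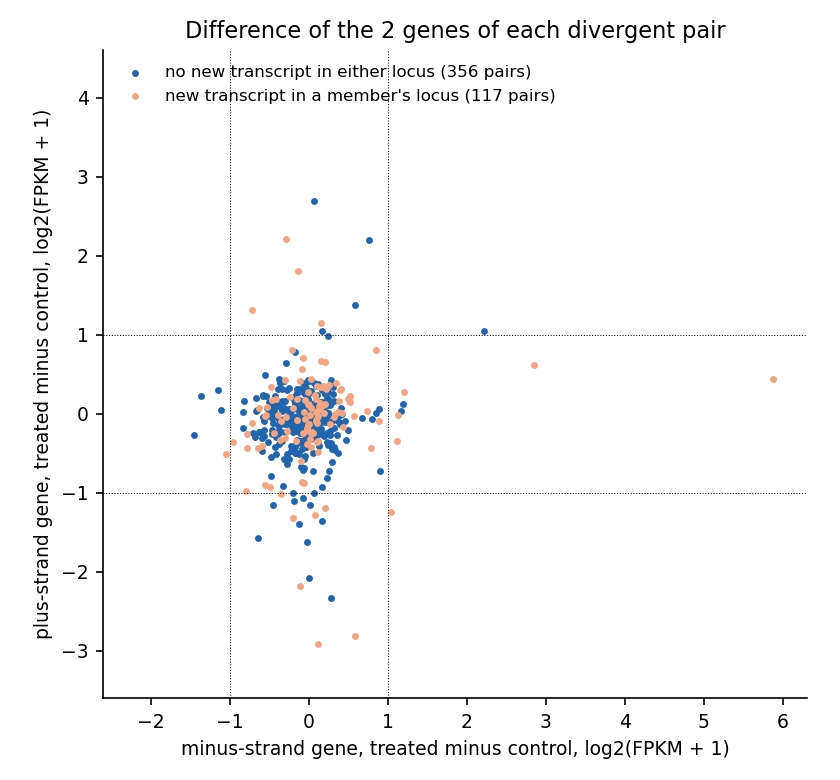
Difference of the plus-strand gene (vertical axis, treated minus control, log2(FPKM + 1)) against that of the minus-strand gene (horizontal axis, same scale) for the 473 divergent pairs with both genes measured; blue pairs (356) have no newly assembled transcript in the locus of either gene and orange pairs (117) have one, and dotted lines mark differences of 1 and -1. Most pairs lie within the central square; 1 pair lies in the upper right corner and 1 orange pair in the lower right corner.

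Newly assembled transcripts seldom crossed from 1 gene of a divergent pair toward the other. At least 1 overlapped the gap in 51 divergent pairs (4.67%), against 6.80% of same-strand and 3.87% of convergent pairs. A new transcript covered the whole gap in 22 divergent pairs (2.01%), against 3.75% of same-strand and 1.69% of convergent pairs. None (0) lay wholly inside a divergent gap, and the other classes were alike, with 1 same-strand and 0 convergent pairs. No divergent pair (0) was merged into 1 assembled locus, against 138 same-strand pairs (3.19%), whose members can share reads of 1 merged transcript, and none (0) of the 2483 convergent pairs, whose genes likewise lie on opposite strands. The gap is measured between the outermost annotated ends. For the 421 pairs with both genes expressed, the 5′ ends of the leading annotated transcripts were as far apart as the gap itself in 334 pairs in each library (79.3%). Where both genes have 1 annotated transcript, this holds by definition. Of all members, 34.1% have more than 1 annotated transcript, and the pairs in which the distance could differ were not counted. The median distance between these ends was 436 bases in the treated and 447 bases in the control library, compared with a median gap of 410 bases, and it was over 1000 bases in 14 pairs in each library. The sources used here do not say whether the libraries kept strand, and reads beyond an annotated 5′ end cannot be assigned to a strand from these files.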

How the data were processed

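RNA from 2 wound samples, 1 per treatment, was sequenced, and each library was grouped by its treatment label. Per the submitters' processing notes, HISAT2 and HTSeq 0.6.1 were used, in roles that are not given there. The sources used here name no genome build, annotation or assembler. FPKM values were deposited by the authors for genes in 1 table and for 51199 transcripts in a table per library, there with coverage (mean read depth per base). Positions follow the transcript tables and count from 1.

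For annotated genes, transcripts were joined by identifier, with the lowest start, the highest end and the summed FPKM. Genes were sorted by start, and pairs were taken from neighbours with 1 to 1000 bases between them. Differences used log2(FPKM + 1), with a pseudocount of 1. A gene in 2 same-strand pairs counts in each. Coverage divided by FPKM was 7.54 in the treated and 8.04 in the control library, and 300 bases, the most frequent product of coverage and length in barely covered transcripts, was taken as 1 fragment. Ratios of fragments have exact (Clopper-Pearson) 95% intervals, which cover counting error only. Pair finding, calls and correlations were tested on simulated data. The alternatives tried were other pseudocounts, filters, gaps, gene values and scaling. Named pairs follow a rule on level, difference and gap: pairs with both genes past the threshold, the 3 with the largest difference beside a steady partner (under 0.2, at 5 FPKM or more), the 3 with the highest lower gene, the 3 most abundant with a partner at 0, and the 2 closest pairs with all values at 5 FPKM or more. The members, rules and lists were chosen with earlier results of these data known. Python 3.11.15, pandas 2.3.3, numpy 2.4.6 and SciPy 1.17.1 were used.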

Additional observations from a re-analysis of the deposited data

How the results depend on the processing

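Of 102 alternative values of the results on divergent pairs, 62 stayed within an interval around the value reported (for counts, within 1.5 times). That interval was taken over pairs as if they were independent, for example 35.6% to 41.5% around the share of 38.5%. Pairs on 1 genome are not replicates, so the 62 only sort the alternatives by size of change and measure no error. The share of pairs with both genes expressed was 49.0% at gaps of 1 to 300 bases and 33.5% at gaps above 300 bases (same-strand pairs 34.4% and 30.5%). It was 42.9% by the deposited gene values (same-strand 38.1%), 53.7% at a level of 0.1 FPKM (same-strand 48.2%) and 19.5% at 5 FPKM (same-strand 15.7%), and stayed above the same-strand share in each of these. The median distance of levels in the treated library was 1.46 at gaps of 1 to 300 bases, 1.19 with a pseudocount of 5 and 1.29 with a filter of 5 FPKM; in the control library it was 1.86 with a pseudocount of 0.1, 1.21 with a pseudocount of 5 and 1.26 with the filter. The correlation of levels was 0.19 in the treated and 0.19 in the control library with no filter, since unexpressed pairs then enter. The count of higher members, 22, was 10 and 12 in the 2 gap ranges, 13 by gene values, 9 without pairs that hold a new transcript, 11 without members with one in their locus, 38 and 6 with pseudocounts of 0.1 and 5, 9 with a filter of 5 FPKM and 7 at a difference of 2. The count of lower members, 33, was 12 and 21 in the gap ranges, 20 without pairs that hold a new transcript, 50 and 9 with the pseudocounts, 20 with the filter and 7 at a difference of 2. The single pair with both genes past the threshold in one direction became 4 with a pseudocount of 0.1 and 0 with a pseudocount of 5, a filter of 5 FPKM, a difference of 2 or gaps above 300 bases. The single pair in opposite directions became 0 by gene values, without pairs that hold a new transcript, with a pseudocount of 5, with the filter, at a difference of 2 and at gaps of 1 to 300 bases. Fewer genes enter or pass by construction in the gap ranges and under the larger pseudocount, filter and threshold; for the other changes the cause was not tested. Leaving out members or pairs with new transcripts in their locus, pairs past the threshold and pairs under 100 fragments were chosen after seeing the data. No paired analysis was possible because there was only 1 library of each treatment, which also meant that none could be left out. Promoter motifs, which were planned, were not counted because no sequence was used here.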
